A study of Mus musculus with 12 samples.

Results

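The genes described are 8 members of the SUMO system of mouse T cells, taken by gene symbol from 41457 genes measured. They are the SUMO proteins Sumo2 and Sumo3, the E1 subunits Sae1 and Uba2, the E3 ligases Pias1 and Pias4, and the proteases Senp1 and Senp3. All 8 had enough reads to be tested in every comparison.

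Poly(A) RNA was sequenced from CD4+ T cells of spleen and lymph nodes of C57BL/6 mice. The cells came from NFATc1/ΔS mice, in which, per the series title, the transcription factor NFATc1 lacks SUMOylation, or from wild-type (WT) mice. They were skewed in vitro toward Th1 cells with 10 ng/ml IL-12 and an antibody to IL-4, toward Th2 cells with 50 ng/ml IL-4 and an antibody to IFN-γ, or toward Th17 cells with 0.5 ng/ml TGFβ, 20 ng/ml IL-6 and both antibodies. All cultures received plate-bound anti-hamster IgG and soluble antibodies to CD3ε and CD28 (1 µg/ml), and were labelled day 3.5 or day 2.5. Th17 cultures had IMDM medium and 0.25 µg/ml anti-CD3, whereas Th1 and Th2 cultures had RPMI and 0.5 µg/ml, so Th17 skewing, medium and anti-CD3 dose cannot be told apart. There was 1 library for each combination of cell type, genotype and day, 12 in all. The labels give neither the age or sex of the mice nor whether libraries came from separate animals. P-values therefore measure the spread among these 12 libraries, with other cell types, days or genotypes standing in for replicates.

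SUMO is a small protein that is joined to lysines of other proteins and changes their partners, location or activity. A SENP protease first trims the SUMO precursor; the E1, a pair of SAE1 and UBA2, activates it, and E3 ligases such as the PIAS proteins help pass it to a target. SENP proteases remove it again, so that the state of a target rests on both arms. SUMO2 and SUMO3 are near-identical once trimmed and can form chains. NFATc1, which is activated by T cell receptor signals through calcineurin, is one of the transcription factors that SUMO is joined to.

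The coding sequences of Sumo2 and Sumo3 were compared with each other and with pseudogenes, since likeness bears on how reads of a gene are counted. They are printed in the direction of the transcript, from the GRCm38 genome and its annotation, with every base in capitals that differs between the pair or has no partner in the alignment. The Sumo2 coding sequence (288 bases) lies at chr11:115523707-115536118 on the minus strand and that of Sumo3 (333 bases) at chr10:77606321-77616258 on the plus strand, and both are given from base 34 to the stop codon.
Sumo2: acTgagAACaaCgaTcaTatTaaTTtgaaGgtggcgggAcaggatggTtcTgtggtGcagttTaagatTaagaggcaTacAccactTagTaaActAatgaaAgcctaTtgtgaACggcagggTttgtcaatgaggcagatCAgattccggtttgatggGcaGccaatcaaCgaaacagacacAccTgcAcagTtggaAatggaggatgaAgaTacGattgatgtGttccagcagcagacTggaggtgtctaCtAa
Sumo3: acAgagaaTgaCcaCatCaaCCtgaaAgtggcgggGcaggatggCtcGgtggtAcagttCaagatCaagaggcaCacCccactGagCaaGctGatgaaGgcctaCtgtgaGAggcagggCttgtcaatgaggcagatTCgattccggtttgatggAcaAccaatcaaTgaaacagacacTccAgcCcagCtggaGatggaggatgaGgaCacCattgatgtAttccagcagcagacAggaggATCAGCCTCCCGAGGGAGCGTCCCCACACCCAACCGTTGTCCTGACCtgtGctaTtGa
Of 285 aligned bases 236 were identical (82.8%), and the longest stretch without a difference was 17 bases. A coding read longer than that would meet a difference between the pair, and sharing of reads between them was not tested. The lone long block of capitals near the 3′ end of Sumo3 codes for its longer tail, which is cut off when the precursor is trimmed. The Sumo2 coding sequence also had 12 annotated pseudogene copies, on 8 chromosomes, that matched at least 80% of its length at 90.6% identity or more; the closest was identical over its whole aligned length. Sumo3 had 1 such copy (91.4%). None of the pseudogene copies was listed in the tables used here.

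Few reads of the pair were counted as unique. Of 50427 reads assigned to Sumo2 over the 12 libraries, 823 (1.63%) were counted as unique, or 39 to 113 reads per library. Of 12624 reads assigned to Sumo3, 820 (6.496%) were unique, or 47 to 109 per library. Senp1 had 93.9% unique reads, and the other 5 genes had at least 99.4%. Reads that crossed an exon-exon junction gave another count: 10899 for Sumo2, of which 30 were unique, and 1572 for Sumo3, of which 818 were unique. Results for Sumo2 and Sumo3 are given with these counts beside them where such fits were run; differences within a single cell type, and the genotype difference in Th2 and Th17 cells alone, were fitted with all reads only. The gene model Gm49325 (chr10:77606197-77641543) overlaps Sumo3 on the same strand, with 14 to 92 reads per library. Nearly all unique Sumo3 reads crossed a junction (818 of 820). Whether that overlap or matches elsewhere kept other Sumo3 reads from being unique was not tested. Intron reads were 0.61 to 2.02% of Sumo2 reads per library, and unique reads 1.09 to 2.49%. How many unique reads lay in introns was not tested, so the unique count of Sumo2 may not follow its spliced RNA. Senp1 is overlapped on the other strand by Pfkm and by gene models of unknown function, and the strand setting of the counting is not given in the sources used here.

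**Figure D1:**
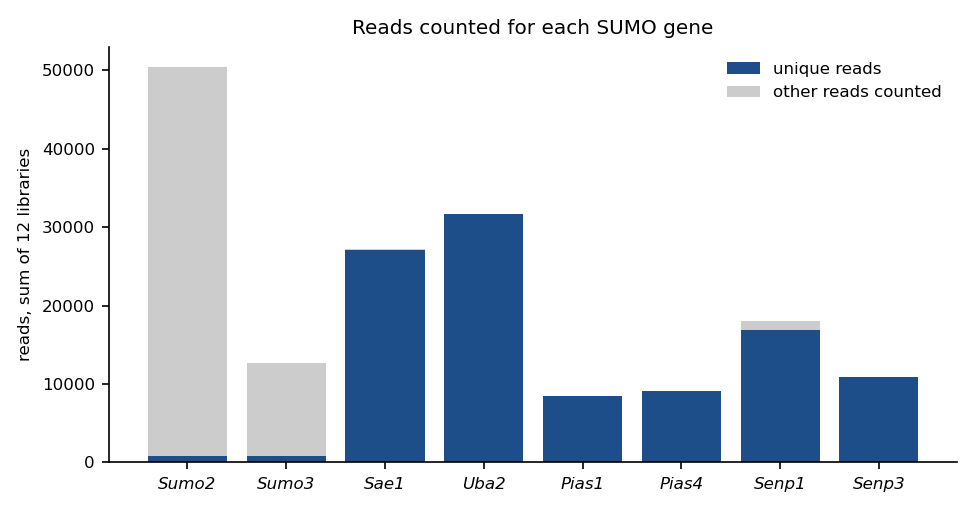
Unique reads of the 8 genes as a part of all their reads in the 12 libraries. Sumo2 (1.63% over all libraries) and Sumo3 (6.496%) lie far below the other genes. Those have at least 93.9% over all libraries and at least 92.0% in any single library.

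The libraries held 13417121 to 17774400 gene reads each, of which 78.95 to 81.37% were unique. Marker genes fitted the labelled cell types: the summed CPM (reads scaled to the library total) of 3 Th1 markers were 419 to 539 in Th1 libraries, 38.3 to 88.5 in Th2 and 89.5 to 183 in Th17 libraries. The 3 Th2 markers summed to 708 to 1168 in Th2 libraries and at most 117 elsewhere, and the 3 Th17 markers to 62.5 to 147 in Th17 libraries and at most 12.2 elsewhere. B cell, myeloid, dendritic, CD8 T and NK, and erythroid markers each summed to at most 51.2 CPM, and of these 21 genes 13 were at 0 in some library. The 5 B cell markers differed between cell types without overlap, at 1.37 to 2.64 CPM in Th1, 19.8 to 24.7 CPM in Th2 and 4.70 to 11.5 CPM in Th17 libraries. Nfatc1 itself lay between 128 and 271 CPM, with a genotype difference of 0.08 on the log2 scale (edgeR adjusted p = 0.83), and its level does not check an allele that alters the protein. The Th1 libraries of day 2.5 stood apart. The one labelled NFATc1/ΔS correlated at 0.927 to 0.955 with other Th1 libraries over genes, and the one labelled WT correlated best with a Th17 library (0.978, against 0.954 to 0.956 with other Th1 libraries); both carried Th1 markers (506 and 539 CPM). The Th1 libraries of day 3.5 correlated at 0.991. Results are given with and without these day 2.5 libraries.

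Per length of exon and with all reads counted, Sumo2 was the most abundant of the 8 genes. Levels were compared as RPKM, exon reads scaled to the annotated exon length of the gene and to the exon reads of the library, over all 12 libraries. Sumo2 had 165 ± 33.3 RPKM (SD, n = 12), Sae1 57.5 ± 17.8, Uba2 29.8 ± 7.77 and Sumo3 19.6 ± 3.16 RPKM. Senp3 had 16.7 ± 5.70, Pias4 13.7 ± 1.83, Senp1 8.27 ± 1.27 and Pias1 6.74 ± 0.578 RPKM. The order Sumo2, Sae1, Uba2, Sumo3 held in 12 of 12 libraries. Only 1.63% of Sumo2 and 6.496% of Sumo3 reads were unique. Their places in the order thus rest on how the other reads were assigned, which is not given. Sumo3 exceeded Senp3 in 8 of 12, Senp3 exceeded Pias4 in 8 of 12, Pias4 exceeded Senp1 in 11 of 12 and Senp1 exceeded Pias1 in 10 of 12, so the lower neighbours overlap. The exon length joins all annotated transcripts of a gene (11873 bases for Senp1, 1736 for Sumo2), so a gene with a long, rarely used exon is given too low a level.

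The E1 subunits act as a pair in a fixed ratio. Their RNA levels per annotated exon length stood at 1.57 to 2.20 Sae1 to 1 Uba2 (median 1.88). Senp3 had 1.25 to 3.51 times the RPKM of Senp1, and Pias4 1.53 to 2.34 times that of Pias1. In mean CPM, which is not scaled to length, Uba2 (174.5) lay above Sae1 (149.0) and Senp1 (99.9) above Senp3 (60.1). Pias4 (51.2) still lay above Pias1 (47.0). The ratios thus depend on the annotated exon lengths. The highest ratio of Senp3 to Senp1 and the lowest of Pias4 to Pias1 were both in the Th1 NFATc1/ΔS library of day 2.5.

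The genes also differed in how far they moved over the 12 libraries. On log2 CPM, Sae1 and Senp3 had an SD of 0.37, Uba2 0.29, Sumo3 0.26, Pias4 0.25, Sumo2 0.24, Senp1 0.17 and Pias1 0.13. Pias1 was thus the steadiest, at 38.6 to 52.6 CPM in all libraries.

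**Figure D2:**
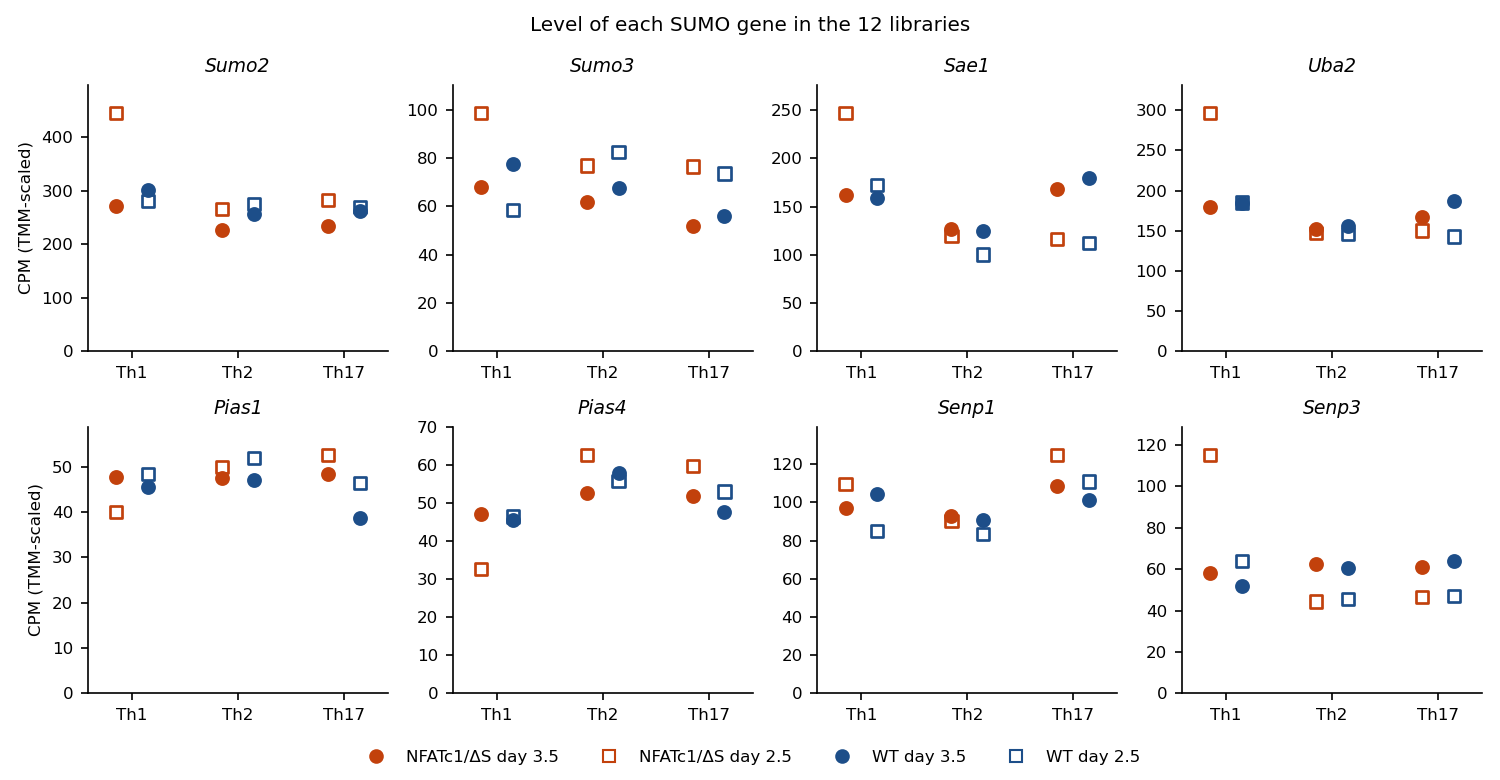
Level of each of the 8 genes in every library in CPM, by cell type, genotype and day. The Th1 NFATc1/ΔS library of day 2.5 is the highest of all for Sumo2 (445 CPM), Sumo3 (98.6), Sae1 (247), Uba2 (297) and Senp3 (115) and the lowest for Pias4 (32.8).

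Between NFATc1/ΔS and WT cells, no difference in the RNA of the 8 genes was detected. Over the 6 pairs of libraries that share cell type and day, none of the 8 passed (edgeR's quasi-likelihood test, Benjamini-Hochberg adjusted p under 0.05), at a background of 0.0% of the 12329 genes tested. None of the 8 had an unadjusted p under 0.05, against 716 of all genes, and DESeq2 and limma-voom, which called 21 and 1 of all genes, called none of the 8. The intervals below bound the differences that remain possible.

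Among the conjugating genes, Sae1 differed by 0.13 ± 0.08 (log2 NFATc1/ΔS over WT, SE; 95% interval -0.06 to 0.32; adjusted p = 0.823) and was higher in 5 of 6 NFATc1/ΔS libraries. Uba2 differed by 0.09 ± 0.10 (interval -0.14 to 0.32) and was higher in 3 of 6. Sumo2 differed by 0.03 ± 0.11 (interval -0.22 to 0.28) and Sumo3 by 0.04 ± 0.12 (interval -0.23 to 0.31), and each was higher in 2 of 6 NFATc1/ΔS libraries. With unique reads the differences were 0.17 ± 0.18 for Sumo2 and 0.11 ± 0.16 for Sumo3, and with junction reads 0.03 ± 0.10 and 0.09 ± 0.12; none of these passed. The PIAS ligases, which steer SUMO to transcription factors, gave 0.04 ± 0.09 for Pias1 (interval -0.15 to 0.24) and -0.02 ± 0.10 for Pias4 (interval -0.25 to 0.21). Of the proteases, Senp1, which removes SUMO from many nuclear targets, differed by 0.11 ± 0.07 (interval -0.04 to 0.26) and was higher in 5 of 6 pairs, and Senp3, a nucleolar protease of SUMO2 and SUMO3, by 0.16 ± 0.12 (interval -0.11 to 0.43). All adjusted p-values were between 0.823 and 0.968.

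One pair was unlike the rest. In Th1 cells of day 2.5, Senp3 had 115 CPM in NFATc1/ΔS cells and 63.8 CPM in WT cells, Uba2 297 and 185 CPM, Sumo3 98.6 and 58.4 CPM, and Sumo2 445 and 280.2 CPM. Sae1 had 247 CPM in the NFATc1/ΔS library and 172 CPM in the WT library, while Pias4 had 32.8 CPM against 46.5 CPM. The median absolute difference of the 8 genes in that pair was 0.59 on the log2 scale, against 0.44 over all genes, and the SD of the difference over all genes was 0.84, against 0.35 to 0.43 in the other 5 pairs. In those 5 pairs no member differed by more than 0.32. The summed CPM of 6 ribosome biogenesis and growth genes was 3440 in the Th1 NFATc1/ΔS library of day 2.5 and 1591 in the WT one, and that of 10 proliferation genes 4390 and 3041; their part in the member differences was not tested.

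Without any Th1 library, in the 8 Th2 and Th17 libraries, the genotype differences of the 8 genes ran from -0.08 to 0.12, with adjusted p between 0.444 and 0.942. The spread between libraries was then smaller and 2.13% of 12415 genes passed, but none of the 8. The narrowest intervals are from this comparison: -0.02 to 0.23 for Senp1, -0.15 to 0.10 for Uba2, -0.08 to 0.20 for Sae1 and -0.15 to 0.11 for Senp3. The direction of Sumo2, Sumo3, Uba2, Senp3 and Pias4 was the opposite of that over all 12 libraries, with values between -0.08 and 0.08.

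Within single cell types, the member with the smallest p in Th1 was Senp3, at 0.51 ± 0.17 (adjusted p = 0.579; 0.0% of genes passed), and in Th17 Pias1, at 0.25 ± 0.09 in the 8 Th2 and Th17 libraries (adjusted p = 0.2402; 1.79% of genes passed there). In Th2 none of the 8 passed in those libraries either (1.03% of genes did). Pias1 had 48.4 CPM on day 3.5 and 52.6 CPM on day 2.5 in NFATc1/ΔS Th17 cells, against 38.6 and 46.4 CPM in WT Th17 cells. No member passed the test of whether the genotype difference differs between cell types (adjusted p of the interaction 0.974 to 0.992; background 0.0% of 12797 genes) or between days (0.983 to 0.998; 0.0% of 13089 genes).

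**Figure D3:**
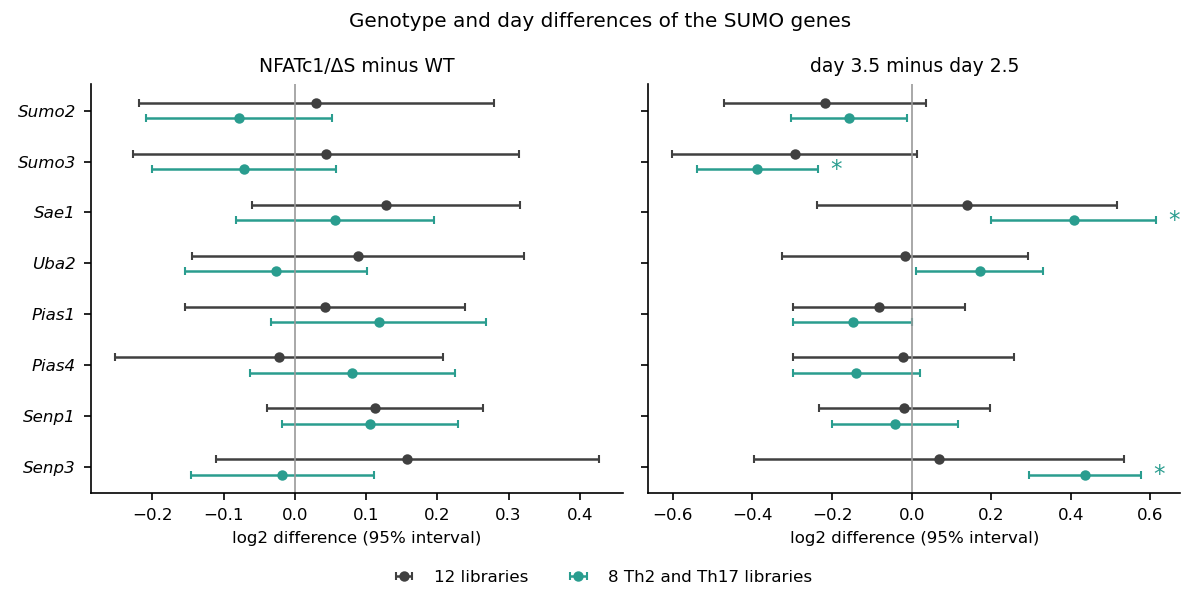
Differences on the log2 scale with 95% intervals for the 8 genes: genotype (NFATc1/ΔS over WT) and day (day 3.5 over day 2.5), in all 12 libraries and in the 8 Th2 and Th17 libraries. Every genotype interval contains 0, and the day differences of Senp3 (0.44), Sae1 (0.41) and Sumo3 (-0.39) pass in the 8 libraries, marked by an asterisk.

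Between the days, Senp3 and Sae1 were higher and Sumo3 lower on day 3.5 in Th2 and Th17 cells. In these 8 libraries Senp3 rose by 0.44 ± 0.06 on the log2 scale (day 3.5 over day 2.5; adjusted p = 0.000501) and Sae1 by 0.41 ± 0.09 (adjusted p = 0.00633), while Sumo3 fell by 0.39 ± 0.07 (adjusted p = 0.00146). These were 3 of 8 genes, against a background of 40.5% of 12415 genes that passed, so the share is near that of all genes. Over all 12 libraries none of the 8 passed, at a background of 0.0% of 12329 genes (1333 genes, and none of the 8, had an unadjusted p under 0.05; DESeq2 called 143 genes and none of the 8). Within Th2 or Th17 cells, the edgeR fit of all 12 libraries also called none of the 8. The lowest adjusted p was 0.2478 in Th2 and 0.1235 in Th17, and 0.0% of 12797 genes passed in each. The tests within Th2 and Th17 below are from the 8 libraries, and the one within Th1 is from the 12. Fewer cells of a type and less RNA per cell cannot be told apart in such bulk samples.

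Senp3, which works with a nucleolar complex in ribosome assembly, showed the day difference in each of the 4 pairs. On day 3.5 it had 62.4 CPM in NFATc1/ΔS and 60.4 CPM in WT Th2 cells, against 44.4 and 45.6 CPM on day 2.5. In Th17 cells it had 61.2 CPM (NFATc1/ΔS) and 64.1 CPM (WT) on day 3.5, against 46.6 and 47.1 CPM on day 2.5. The groups did not overlap. In Th1 cells the order was the reverse, with 58.3 CPM (NFATc1/ΔS) and 51.9 CPM (WT) on day 3.5, against 115 and 63.8 CPM on day 2.5. The difference in Th1 was -0.64 ± 0.17 (adjusted p = 0.0858; 5.36% of genes passed there).

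Sae1, the subunit of the E1 that works with UBA2 to form the SUMO adenylate, moved most in Th17 cells. It had 169 CPM (NFATc1/ΔS) and 180 CPM (WT) on day 3.5, against 116 and 112 CPM on day 2.5. In Th2 cells it had 126 and 125 CPM on day 3.5, against 120 and 100.3 CPM on day 2.5. Fitted within the 8 libraries, the rise in Th17 was 0.61 ± 0.09 (adjusted p = 0.000179), and the value in Th2 was 0.20 ± 0.09 (adjusted p = 0.109). The difference between them, 0.41 ± 0.12, did not pass (adjusted p = 0.145; background 1.55%), so the day difference of Sae1 is not shown to differ between Th17 and Th2 cells. In Th1 cells Sae1 had 162 (NFATc1/ΔS) and 159 CPM (WT) on day 3.5, against 247 and 172 CPM on day 2.5.

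Uba2, the other subunit, which carries the active cysteine, rose in Th17 cells by 0.27 ± 0.08 (adjusted p = 0.0229), with 168 (NFATc1/ΔS) and 187 CPM (WT) on day 3.5, against 150.4 and 143 CPM on day 2.5. In Th17 4 of the 8 genes passed, at a background of 34.3%. Over both cell types Uba2 reached 0.17 ± 0.07 (adjusted p = 0.0814). Its Th2 values lay between 146 and 156 CPM on both days.

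Sumo3, a SUMO that joins in chains, fell in both cell types. It had 51.9 (NFATc1/ΔS) and 56.2 CPM (WT) on day 3.5 in Th17 cells, against 76.5 and 73.6 CPM on day 2.5, a fall of 0.47 ± 0.09 (adjusted p = 0.000940). In Th2 cells it had 61.8 and 67.5 CPM on day 3.5, against 76.9 and 82.6 CPM on day 2.5, a fall of 0.30 ± 0.09 (adjusted p = 0.0174). In Th2, 2 of the 8 genes passed, Sumo3 and Senp3, at a background of 29.7%. With exon-exon junction reads Sumo3 still passed over both cell types (-0.33 ± 0.11, adjusted p = 0.0308), but with unique reads it did not (-0.33 ± 0.15, adjusted p = 0.0999). The size over both cell types was alike in the 3 counts and the unique reads are few.

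With all reads over both cell types, the other 4 genes did not pass between days. Sumo2 differed by -0.16 ± 0.07 (adjusted p = 0.0780), and its direction turned with unique reads (0.30 ± 0.19, adjusted p = 0.217). Intron reads were 1.44 and 0.80% of Sumo2 reads in Th2 NFATc1/ΔS and WT cells of day 3.5, against 0.61 and 0.75% on day 2.5. In Th17 cells they were 2.02 and 1.26% on day 3.5, against 0.77 and 1.44% on day 2.5. The part of intron reads in the turn was not tested. Junction reads gave -0.13 ± 0.07 (adjusted p = 0.169), and without the Th17 WT pair Sumo2 passed at -0.21 ± 0.07 (adjusted p = 0.0398). Pias1 differed by -0.15 ± 0.07, Pias4 by -0.14 ± 0.07 and Senp1 by -0.04 ± 0.07 (adjusted p = 0.105, 0.148 and 0.665 in that order). With junction reads Pias1 passed at -0.31 ± 0.11 (adjusted p = 0.0384), as did Uba2 at 0.21 ± 0.07 (adjusted p = 0.0280), beside Senp3, Sae1 and Sumo3. These were 5 of 8 genes, against 3225 of 9225 over all genes in that fit. Senp1 was higher on day 3.5 in both Th2 pairs and lower in both Th17 pairs, but the difference between the cell types, -0.25 ± 0.11, did not pass (adjusted p = 0.374).

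**Figure D4:**
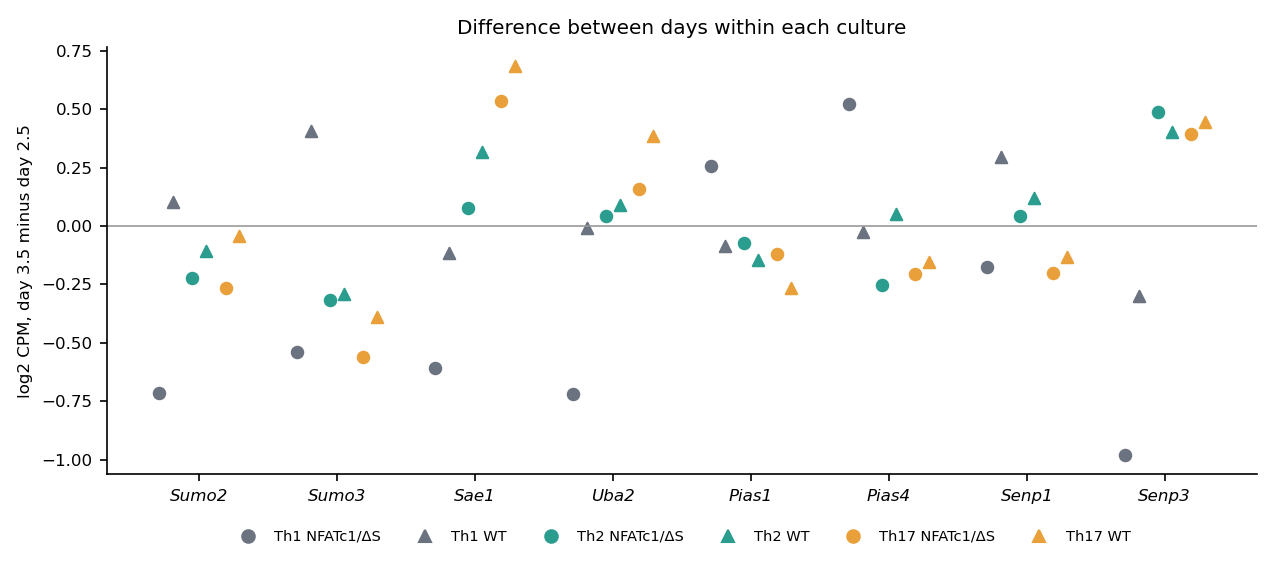
The 8 genes on day 3.5 and day 2.5, compared within each pair of libraries of 1 cell type and genotype. Senp3 lies higher on day 3.5 in all 4 Th2 and Th17 pairs (60.4 to 64.1 CPM, against 44.4 to 47.1 CPM on day 2.5) and lower in both Th1 pairs.

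Whether the day difference itself differs between the 3 cell types was tested in 1 model. No member passed, with Senp3 (adjusted p = 0.0684) and Sae1 (0.0868) the lowest, at a background of 5.01%; 2 of the 8 had an unadjusted p under 0.05. The result rests on the Th1 libraries of day 2.5. Without the Th1 WT library of day 2.5, 5 of the 8 passed (49.8% of genes), and without the Th1 NFATc1/ΔS one 3 of the 8 (24.9% of genes).

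Some other genes of the SUMO pathway also moved between days in Th2 and Th17 cells. Of 25, 7 passed, 6 of them higher on day 3.5 (28.0%, against the 40.5% background), with a median of 0.02 beside 0.03 over all genes. The proteases Senp5 and Senp2 rose by 0.29 ± 0.07 (adjusted p = 0.00848) and 0.28 ± 0.07 (adjusted p = 0.0106). The mitochondrial ligase gene Mul1 rose by 0.34 ± 0.09, the SMC5/6 ligase gene Nsmce2 by 0.29 ± 0.08, Rangap1, the first SUMO target described, by 0.21 ± 0.07 and Pml, which builds nuclear bodies, by 0.20 ± 0.06. In the genotype comparison none of the 25 passed by edgeR or DESeq2, nor had an unadjusted p under 0.05 over the 12 libraries.

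Lists of genes outside the SUMO system were read over the same days, against the 40.5% of all genes that passed. All 10 proliferation genes were higher on day 3.5 in the 8 Th2 and Th17 libraries, with a median of 0.60, among them Ccnb1 (0.65 ± 0.07), Mki67 (0.67 ± 0.10) and Rrm2 (0.80 ± 0.11). Of 6 partners of SENP3 in ribosome assembly, 4 rose, including Pelp1 (0.50 ± 0.07) and Nol9 (0.47 ± 0.09), and Npm1, which encodes the abundant nucleolar protein nucleophosmin, fell by 0.84 ± 0.07. Of 6 ribosome biogenesis and growth genes 3 rose and 1 fell, with Nolc1 at 0.88 ± 0.08, Nop56 at 0.80 ± 0.08 and Nop58 at 0.47 ± 0.06. Of 7 genes of NEDD8, a related modifier with its own E1 and E2, 1 rose (Ube2m, its E2, 0.34 ± 0.07). The part of these groups in the changes of Senp3, Sae1 and Sumo3 was not tested.

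Among cell types, Sae1 was higher in Th1 than in Th2 cells. It averaged 185 ± 41.5 CPM in Th1 libraries and 118 ± 12.0 CPM in Th2 libraries (SD, n = 4 each), with 159 to 247 CPM in Th1 and 100.3 to 126 CPM in Th2, so the groups did not overlap. The difference was 0.66 ± 0.19 on the log2 scale (95% interval 0.23 to 1.08; adjusted p = 0.0314), and Sae1 was the only 1 of the 8 genes to pass, at a background of 28.6% of 12797 genes. Without both Th1 libraries of day 2.5 it was 0.25 ± 0.11 and did not pass (adjusted p = 0.0986). The call was also lost in 7 of the 12 fits that left out a single library: either Th1 library of day 2.5, any of the 4 Th2 libraries, or the Th17 WT library of day 2.5 (0.46 to 0.79 and adjusted p between 0.0219 and 0.0995 over the 12 fits). On day 3.5 alone, with 162 and 159 CPM in Th1 cells against 126 and 125 CPM in Th2 cells, Sae1 passed at 0.32 ± 0.07 (adjusted p = 0.00507; 47.9% of genes passed there).

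Uba2 had the same direction, with 212 ± 56.7 CPM in Th1 and 150.2 ± 4.28 CPM in Th2 libraries, and just missed the threshold (0.48 ± 0.16, adjusted p = 0.0536). On day 3.5 alone it passed (0.22 ± 0.07, adjusted p = 0.0344), and without both Th1 libraries of day 2.5 it did not (0.19 ± 0.08, adjusted p = 0.0723). Pias4 had the opposite direction, with 43.0 ± 6.87 CPM in Th1 and 57.3 ± 4.19 CPM in Th2 libraries (-0.41 ± 0.14, adjusted p = 0.0585). Without the Th1 libraries of day 2.5 it passed as lower in Th1 (-0.23 ± 0.08, adjusted p = 0.0368). Its Th1 values of day 3.5, 47.2 (NFATc1/ΔS) and 45.7 CPM (WT), lay below all Th2 values (52.6 to 62.6 CPM).

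Sumo2 averaged 324 ± 81.2 CPM in Th1, 256 ± 20.7 CPM in Th2 and 262 ± 20.1 CPM in Th17 libraries. Over all libraries it did not pass against either (0.32 ± 0.12, adjusted p = 0.0756, against Th2), though with junction reads it passed against Th2 (0.35 ± 0.10, adjusted p = 0.0363). In the 10 libraries without Th1 day 2.5 it passed as higher in Th1 than in Th2 (0.24 ± 0.07, adjusted p = 0.0132) and than in Th17 (0.21 ± 0.07, adjusted p = 0.0416). Junction reads gave the same calls (0.33 ± 0.08, adjusted p = 0.00248, and 0.23 ± 0.08, adjusted p = 0.0429). Unique reads did not, at 0.34 ± 0.18 against Th2 (adjusted p = 0.142) and -0.11 ± 0.18 against Th17 (adjusted p = 0.679). In these 10 libraries 2 of the 8 genes passed between Th1 and Th2, Sumo2 and Pias4, at a background of 46.5%.

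Th1 and Th17 cells differed in none of the 8 genes over the 12 libraries by edgeR (background 4.77%; 2 of the 8 had an unadjusted p under 0.05, and DESeq2 called none). In the 10 libraries Sumo2 and Sumo3 passed, 2 of 8 at a background of 30.4%. Sumo3 had 67.8 and 77.4 CPM in Th1 cells of day 3.5 (NFATc1/ΔS and WT), against 51.9 and 56.2 CPM in Th17 cells of that day. The difference in the 10 libraries was 0.38 ± 0.08 (adjusted p = 0.00494), but it was 0.11 ± 0.14 with junction reads (adjusted p = 0.631) and 0.30 ± 0.19 with unique reads (adjusted p = 0.243).

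Between Th2 and Th17 cells none of the 8 passed over the 12 libraries by edgeR (background 12.0%; 1 of the 8, Senp1, had an unadjusted p under 0.05 and was called by DESeq2). Senp1 averaged 89.3 ± 4.08 CPM in Th2 and 111 ± 9.87 CPM in Th17 libraries (SD, n = 4 each). All 4 Th2 values (83.5 to 92.9 CPM) lay below all 4 Th17 values (101 to 125 CPM). The difference was -0.32 ± 0.10 over the 12 libraries (adjusted p = 0.0662) and, with the spread of the 10 libraries, -0.32 ± 0.07 (adjusted p = 0.00352). The 10 libraries hold the same Th2 and Th17 samples, so the estimate of the spread, the scaling and the set of genes tested (13409, against 12797) are what changed. Sae1 was lower in Th2 (-0.27 ± 0.09, adjusted p = 0.0296) and Sumo3 higher (0.17 ± 0.06, adjusted p = 0.0430) in that comparison, in which 3 of the 8 passed at a background of 41.2%. With junction reads neither Sae1 (-0.23, adjusted p = 0.0558) nor Sumo3 (0.02, adjusted p = 0.892) passed. With unique reads 3 of the 8 passed as well, but with Sumo2 (-0.45 ± 0.14, adjusted p = 0.0241) in place of Sumo3 (0.11 ± 0.14, adjusted p = 0.557), beside Senp1 and Sae1 (adjusted p = 0.0203). With all reads the value of Sumo2 was -0.04 ± 0.05 (adjusted p = 0.606), and with junction reads -0.10 ± 0.06 (adjusted p = 0.224). Sae1 differed on day 3.5 (-0.44 ± 0.07, adjusted p = 0.00165; 31.8% of genes passed there), while on day 2.5 it had 120 and 100.3 CPM in Th2 cells against 116 and 112 CPM in Th17 cells.

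**Figure D5:**
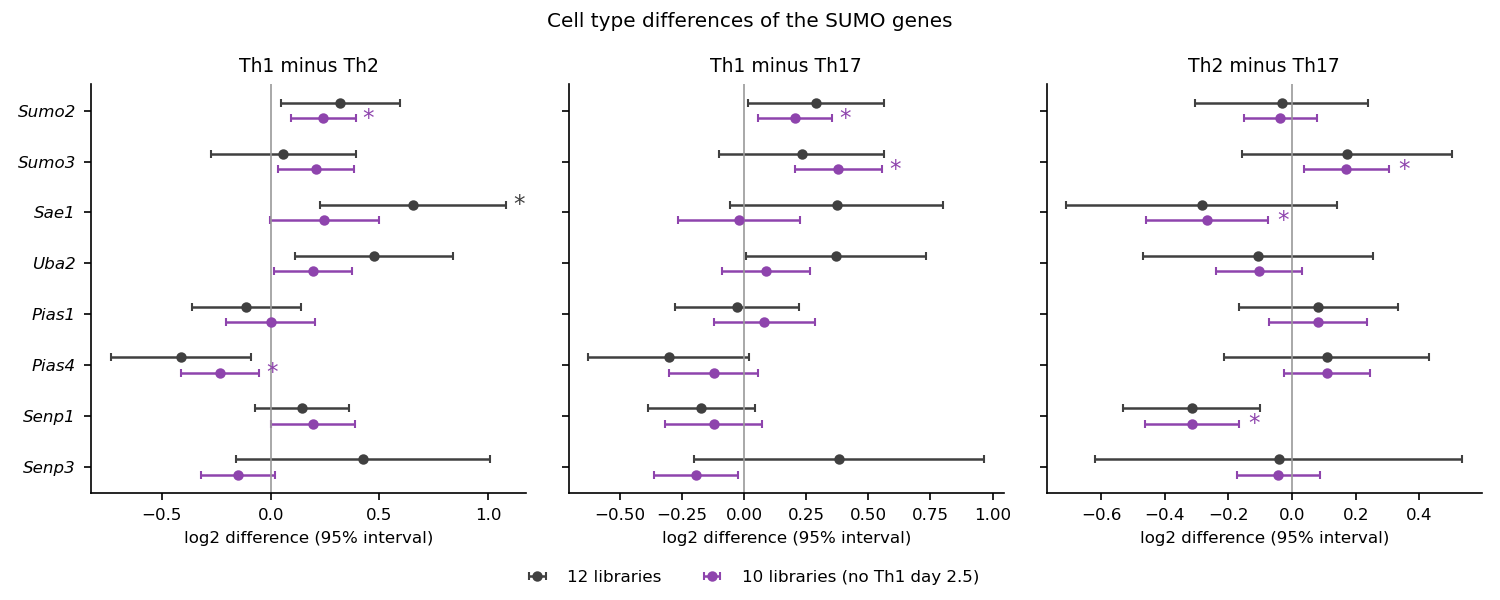
Differences between cell types on the log2 scale with 95% intervals, for the 8 genes in all 12 libraries and in the 10 libraries without Th1 day 2.5. With 12 libraries only Sae1 in Th1 over Th2 (0.66) carries the asterisk of a passed test; with 10, Sumo2, Sumo3, Sae1, Pias4 and Senp1 carry it in at least 1 comparison.

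In Th1 against Th2 cells over the 12 libraries, 6 of the 25 other SUMO pathway genes passed, 4 higher and 2 lower in Th1 (24.0%, against the 28.6% background; median -0.00 beside 0.07 over all genes). Rwdd3, an enhancer of SUMO conjugation, was 0.92 ± 0.28 higher at 13 to 63 reads per library, the protease gene Senp5 0.53 ± 0.15, the nuclear body gene Sp100 0.46 ± 0.14 and Rangap1 0.42 ± 0.12. The ligase gene Pias2 was 0.44 ± 0.12 lower and Desi2, of the DeSI protease family, 0.33 ± 0.10 lower. All 6 also passed in the 10 libraries, where 10 of 25 did, among them the protease gene Senp7 (0.42 ± 0.07). Between Th2 and Th17 cells 1 of 25 passed over the 12 libraries, Sp100 (-0.50 ± 0.14; DESeq2 called 3). Between Th1 and Th17 cells none passed by edgeR, 4 had an unadjusted p under 0.05 and DESeq2 called 2. In Th1 against Th2, 3 of 10 proliferation genes were higher (Pcna, Ccne1 and Cdk1), 1 of 6 growth genes (Myc, 0.81 ± 0.12), none of 6 SENP3 partners, and of 7 NEDD8 genes 1 was higher (Senp8, the NEDD8 protease, 0.94 ± 0.20) and 1 lower (Uba3, an E1 subunit, -0.47 ± 0.10). Their part in the Sae1 difference, and that of the B cell markers, higher in Th2 libraries, was not tested.

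Across libraries the E1 subunits varied together. The correlation of log2 CPM of Sae1 and Uba2 was 0.924 over the 12 libraries and 0.940 over the 11 without Th1 NFATc1/ΔS day 2.5. These are descriptions, since the libraries are few and share cell type and day. Uba2 and Pias4 ran opposite, at -0.947 over 12 and -0.850 over 11 libraries. Sumo3 and Senp3 were at 0.121 over 12 libraries and -0.872 over 11, so a single library sets the first value.

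The genes with the most similar pattern to the 3 members that varied most were found among 8628 well-expressed genes by Pearson correlation of log2 CPM over the 12 libraries. For Sae1 they were Guk1 (0.980), H2afz (0.979) and Nup37 (0.978). For Senp3 they were Dus1l (0.992), Srsf6 (0.989) and Abcf2 (0.983), and for Uba2 Snrpd3 (0.992), Rpp14 (0.990) and Cse1l (0.990). Without the Th1 NFATc1/ΔS library of day 2.5 the same 9 values lay between 0.944 and 0.975.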

How the data were processed

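Poly(A) RNA-seq libraries were made with NEBNext kits from total RNA, per the labels' protocols. The authors deposited 1 table per library with raw counts per gene (total, unique, exon, intron and exon-exon junction reads, per the file headers) of 41457 genes. The build is GRCm38, per the submitters' processing notes; for the aligner, counting program and strand setting, nothing is given in the sources used here. The main value was the count of all gene reads, which includes reads not counted as unique, between 13417121 and 17774400 per library. Reads carry no molecular identifiers, so errors cover counting and the spread between libraries only.

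The members and lists were chosen with earlier results of these data known. Tests on counts used edgeR 4.0.16 under R 4.3.3 (scaling by TMM, filterByExpr with a minimum count of 10 and total of 15, robust quasi-likelihood fits), with Benjamini-Hochberg adjustment over all genes tested at 0.05. The SE is the size of the log2 difference divided by the square root of F. CPM are TMM scaled; log2 CPM used a prior count of 2; RPKM were computed from exon reads and deposited exon lengths. Genotype was fitted over 6 pairs with cell type by day as blocks, and day over 6 pairs with cell type by genotype as blocks. Cell types were fitted with genotype by day as 4 blocks. Interactions with cell type used cell type, day and genotype within cell type. Genotype by day was a separate fit, with 13089 genes tested against 12797. Named genes were the 8 members, those of 25 other SUMO pathway genes that passed (some of the 25 are not reported here by name), up to 3 of smallest p from each other list, and the 3 most similar genes of the 3 most variable members. The scripts were tested on simulated data. Alternatives were RLE factors, DESeq2 1.42.0, limma-voom (limma 3.58.1), no read filter, no robust fit, no block, unique reads, exon reads, the 8 Th2 and Th17 libraries alone, day 3.5 alone, and leaving out pairs or libraries. Junction reads, the fits without both Th1 day 2.5 libraries and the alternatives within the 8 and 10 libraries were chosen after seeing the data. The same holds for the fits in the 8 libraries of genotype by day and of differences within and between Th2 and Th17 cells. It also holds for the interaction fits without the Th1 NFATc1/ΔS library of day 2.5. Coding sequences were read from the GRCm38 reference and copies were found with blastn among its annotated transcripts.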

Additional observations from a re-analysis of the deposited data

Results flagged for a closer look

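In 3 genes a single library lay far from the other 3 of its cell type, by the size of the gap to its nearest neighbour over the whole range, in 24 checks (8 genes in 3 cell types); chance gives about 1 such flag in 20 groups. All 3 were the Th1 NFATc1/ΔS library of day 2.5. Sae1 was at 247 CPM there, against 159 to 172 CPM in the other Th1 libraries (gap over range 0.850). Uba2 was at 297 CPM, against 180 to 185 CPM (0.957). Pias4 was at 32.8 CPM, the lowest, against 45.7 to 47.2 CPM (0.898).

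For 4 genes all pairs of one cell type moved opposite to all pairs of another. Between days, Senp3, Sae1 and Uba2 were lower on day 3.5 in both Th1 pairs and higher in all Th17 and Th2 pairs. The test of a difference between the cell types gave adjusted p = 0.0684 for Senp3, 0.0868 for Sae1 and 0.266 for Uba2 (edgeR). Senp1 was lower on day 3.5 in both Th17 pairs and higher in both Th2 pairs (adjusted p = 0.606). Between genotypes, Senp3 was higher in NFATc1/ΔS cells in both Th1 pairs and lower in both Th17 pairs (adjusted p = 0.974). None of these differences passed over the 12 libraries. Senp3 and Sae1 did pass between days when either Th1 library of day 2.5 was left out, which leaves a single Th1 library of that day.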

How the results depend on the processing

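Of 1290 values under alternatives, for 120 results, 1088 stayed the same. A difference stayed the same if it kept its direction and its side of the threshold, and a count of genes if it was equal or close to the main count. Direction changed in 60, and none of those passed the test. The labels give no replicate numbers, so the blocks are the shared cell type, day or genotype. Without the replicate block, 3 of the 8 genes passed in Th1 against Th2 (1 with it), the genotype difference of Pias4 was 0.002398, the day difference of Senp3 was -0.018, and in the 8 Th2 and Th17 libraries 1961 genes passed between days (5022 with it), Sae1 no longer among them (adjusted p = 0.0663); no other call on a member changed without it.

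Counts of all genes that passed moved as follows. For genotype they were 3 with no filter, 21 with DESeq2, 1 with limma-voom, 264 in the 8 libraries and 0 to 23 with a pair left out. For day they were 6 with no filter, 143 with DESeq2, 5022 in the 8 libraries and 0 to 209 with a pair left out. For genotype by cell type they were 85 without the Th1 WT and 81 without the Th1 NFATc1/ΔS library of day 2.5, and for day by cell type 6492 and 3239 in that order, with 5 and 3 members. In Th1 against Th2 they were 2178 with junction reads, 6309 on day 3.5 alone, 6235 in the 10 libraries and 2042 to 4206 with a library left out. In Th1 against Th17 they were 1651 with DESeq2, 387 with junction reads, 3886 on day 3.5, 4082 in the 10 libraries and 166 to 928 with a library left out. In Th2 against Th17 they were 804 with junction reads, 4191 on day 3.5, 5518 in the 10 libraries and 719 to 2954 with a library left out. Junction reads gave 3225 for day in the 8 libraries, and in the 10 libraries 3600, 2154 and 3175 for Th1 against Th2, Th1 against Th17 and Th2 against Th17.

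The number of the 8 genes that passed in Th1 against Th2 was 2 with RLE factors or exon reads and 3 with DESeq2 or junction reads. It was 4 on day 3.5, 2 in the 10 libraries, and 0 to 2 with a library left out. Over all genes, 3584 of 12797 passed there with RLE factors, 3437 of 12006 with exon reads and 2178 of 9480 with junction reads. DESeq2 called 4377 of 12797 genes, and 3927 of 12797 passed without the replicate block. In Th1 against Th17 the number of the 8 was 1 on day 3.5, 2 in the 10 libraries and 0 to 1 with a library left out. In Th2 against Th17 it was 1 with DESeq2 (2099 of 12797 genes), 2 on day 3.5, 3 in the 10 libraries and 0 to 1 with a library left out. For day it was 3 in the 8 libraries, and 5 there with junction reads (3225 of 9225 genes). In the 10 libraries it was 1 with unique reads and 1 with junction reads for Th1 against Th2, 0 and 1 for Th1 against Th17. In Th2 against Th17 these reads gave 3 and 1. The 3 with unique reads were Senp1, Sae1 and Sumo2, and the 3 with all reads Senp1, Sae1 and Sumo3. Over all genes in these libraries, unique reads gave 5975 (Th1 against Th2), 3919 (Th1 against Th17) and 5261 (Th2 against Th17) of 12421.

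Directions turned as follows, and the cause was not tested. The values over 12 libraries were -0.40 for Sumo2 in genotype by day, 0.42 for Senp3 in Th1 against Th2, and 0.38 for Senp3 and 0.37 for Sae1 in Th1 against Th17, so not all turns were from small values. For genotype, the 8 libraries gave -0.079 (Sumo2), -0.072 (Sumo3), -0.026 (Uba2), 0.081 (Pias4) and -0.018 (Senp3), and junction reads -0.029 (Pias1). With a pair left out the ranges were -0.094 to 0.069 (Sumo2), -0.096 to 0.092 (Sumo3), -0.028 to 0.14 (Uba2), -0.013 to 0.11 (Pias1) and -0.062 to 0.073 (Pias4). For genotype by day, unique reads gave 0.31 (Sumo2), leaving out the Th1 WT library of day 2.5 gave -0.014 (Pias4), leaving out the Th1 NFATc1/ΔS one -0.17 (Pias4) and 0.22 (Senp3), and the 8 libraries -0.18 (Pias4) and 0.015 (Senp3). For day, unique reads gave 0.16 (Sumo2), exon reads 0.00081, junction reads 0.048 and the 8 libraries 0.17 (Uba2), and junction reads 0.10 (Senp1); with a pair left out the ranges were -0.094 to 0.14 (Uba2), -0.12 to 0.041 (Pias4), -0.067 to 0.026 (Senp1) and -0.0032 to 0.29 (Senp3). In the 8 libraries, day gave 0.30 with unique reads (Sumo2), and 0.10 with junction reads and -0.098 to 0.0100 with a pair left out (Senp1). In Th1 against Th2, junction reads gave -0.025 (Sumo3), day 3.5 alone -0.18 and the 10 libraries -0.15 (Senp3), the 10 libraries with junction reads 0.15 (Pias1), and a library left out -0.045 to 0.23 (Sumo3). In Th1 against Th17, junction reads gave -0.00056 (Sumo3), day 3.5 alone -0.12 (Sae1), 0.10 (Pias1) and -0.19 (Senp3), the 10 libraries -0.021 (Sae1), 0.082 (Pias1) and -0.19 (Senp3), with unique reads -0.11 (Sumo2) and junction reads 0.056 (Sae1), and a library left out -0.105 to 0.065 (Pias1). In Th2 against Th17, junction reads gave -0.028 and, in the 10 libraries, -0.025 (Pias1), and a library left out -0.078 to 0.055 (Sumo2) and -0.17 to 0.12 (Senp3).

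The depth of 39 to 113 unique Sumo2 and 47 to 109 unique Sumo3 reads per library limits what unique reads can show for these genes, while the other members had at least 501 reads in every library. Few unique Sumo2 reads crossed a junction, and how many lay in introns was not tested.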
